A study of Mus musculus with 8 samples.

Results

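The genes described here encode the SMN complex, the assembly machine of spliceosomal small nuclear ribonucleoproteins (snRNPs), together with coilin, which marks the nuclear bodies where snRNPs mature. They were the 9 genes with the symbols Smn1, Gemin2, Gemin4, Gemin5, Gemin6, Gemin7, Gemin8, Strap and Coil, of 38991 gene identifiers in the files. Each symbol matched 1 identifier, and the rule itself uses no measured value, although the genes were chosen with earlier results of these data known. RNA was sequenced from 8 libraries of male C57BL/6 mouse embryonic stem cells in 2i ground state medium, a medium that holds the cells undifferentiated. Of these, 4 were iPKO, in which Prmt5 was knocked out, and 4 were iPHet, the control genotype, whose name reads as heterozygous. The cells came from blastocysts of embryonic day 3.5, and both genotypes had received 2 µM 4-hydroxytamoxifen for 48 hours, the agent that brings about the deletion, and were below passage 20. The labels name 1 cell line per genotype for most experiments (PC4 for iPKO, PC1 for iPHet), so genotype and line cannot be told apart, and the driver of the recombinase is not given in the sources used here. Nothing in the labels marks the 4 libraries of a genotype as separate cultures. The p-values therefore refer to the spread among these libraries alone, and that spread may be technical.

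PRMT5 places symmetric dimethyl groups on arginines in the tails of several Sm proteins, the ring-forming core of snRNPs. The SMN protein reads these marks through its Tudor domain, and the SMN complex then closes the Sm ring around newly exported small nuclear RNA in the cytoplasm. The particle returns to the nucleus and passes through Cajal bodies, which are built on coilin. Coilin itself carries symmetrically dimethylated arginines that SMN binds, as shown with human proteins. Most of the roles given below for single subunits were worked out with human proteins.

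The deposited values are FPKM, fragments scaled to the length of the transcript and to the mapped fragments of the library. Summed FPKM per library was 458856 in iPHet 1 and 458690 in iPHet 3, and 411827 to 421412 in the other libraries. The part of this difference in the changes below was not tested. No counts were at hand, so depth in reads is unknown, and the number of libraries limits the precision. Prmt5 had 11.8, 14.5, 12.4 and 15.0 FPKM in iPKO 1 to 4, against 52.8, 70.8, 54.3 and 72.2 FPKM in iPHet 1 to 4, so every knockout library was below every control library. On the log2(FPKM + 1) scale, used for every log2 change below, it fell by 2.13 (SE 0.13, limma adjusted p = 0.000171). The 6 stem cell markers examined summed to 1037 to 1094 FPKM in iPKO and 1040 to 1279 FPKM in iPHet, and 1 of them, Sox2, was called lower. The 8 markers of feeder fibroblasts summed to 2.49 to 5.07 FPKM in iPKO and 3.25 to 4.78 FPKM in iPHet. Postn and Lum were listed at 0 in every library, and Col1a1 was below 1 FPKM. Most of the sum came from Fbln2, at 1.52 to 3.30 FPKM in iPKO and 1.66 to 2.34 FPKM in iPHet, and from Thy1. Thy1 had 0.90 to 1.39 FPKM in iPKO and 1.05 to 1.68 FPKM in iPHet, and neither gene was called. The 10 markers of differentiated lineages summed to 14.9 to 22.8 FPKM in iPKO and 14.4 to 18.6 FPKM in iPHet, and 6 of them stayed under 1 FPKM in every library. Of these, 3 passed the filter on low values given below, and they went opposite ways. Nes was called lower, at 2.75 ± 0.93 FPKM in iPKO and 5.20 ± 0.54 FPKM in iPHet (SD, n = 4 each, limma adjusted p = 0.0239). Eomes averaged 12.2 ± 2.75 FPKM in iPKO and 7.51 ± 1.77 FPKM in iPHet (limma adjusted p = 0.0567). Sox1 was likewise higher in iPKO but not called, at 1.71 ± 0.32 FPKM against 1.01 ± 0.18 FPKM in iPHet (limma adjusted p = 0.0524). The part of these markers in the results below was not tested.

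Libraries 1 and 3 of a genotype were much alike, as were libraries 2 and 4. Over protein-coding genes of at least 5 FPKM, the root mean square log2 difference was 0.164 to 0.176 within these pairs and 0.381 to 0.417 between libraries of different pairs of the same genotype. For the 9 genes, the authors' bounds of 35 of 36 such paired values overlapped, and the exception was Gemin7 in iPKO 2 and 4. Whether the members of a pair are separate cultures was not tested, and the values of each pair are therefore given beside those of all libraries. In iPKO, libraries 1 and 3 did not overlap libraries 2 and 4 for 8 of the 9 genes, Gemin7 being the exception. In iPHet this also held for 8 genes, and the exception was Gemin8. Such a split therefore ran through both genotypes. The share of all tested genes with such a split was not computed, so these counts say nothing particular of the 9 genes. In these bulk samples, fewer cells of a type and less RNA per cell cannot be told apart.

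**Figure D1:**
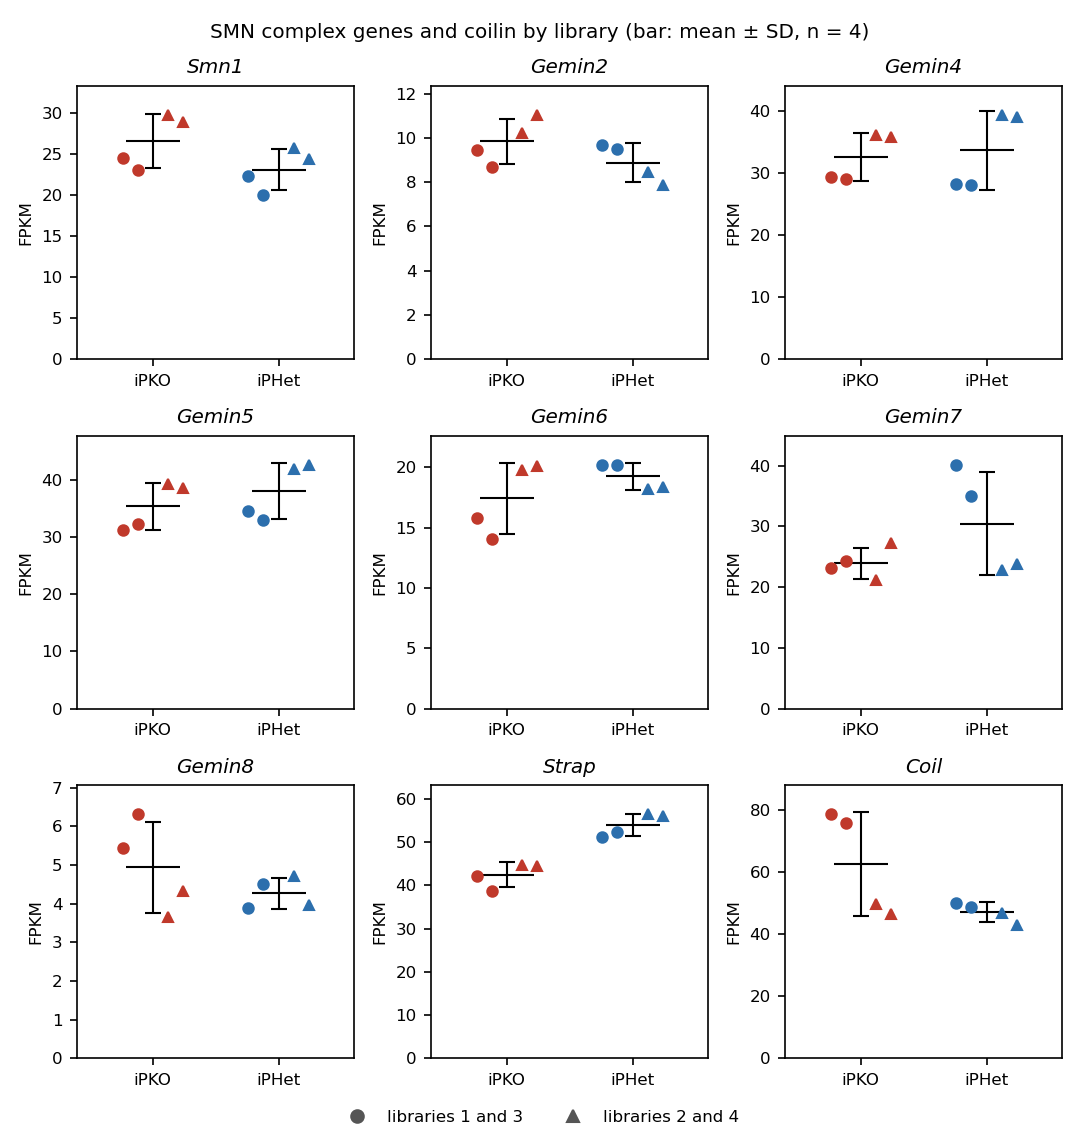
FPKM (linear axis from 0) of the 9 genes in each of the 4 iPKO and 4 iPHet libraries, with circles for libraries 1 and 3, triangles for libraries 2 and 4, and bars for the mean and SD (n = 4). Strap is the 1 gene whose iPKO libraries, at 38.6 to 44.7 FPKM, all lie below its iPHet libraries, at 51.2 to 56.4 FPKM, while Coil is high in iPKO 1 and 3 alone.

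All 9 genes were expressed, and all passed the filter of a mean of at least 1 FPKM in a genotype. FPKM is per length, so their levels can be set side by side. Averaged over the 8 libraries, Coil was first at 54.8 FPKM and Strap second at 48.2 FPKM. Gemin5 followed at 36.7 FPKM, Gemin4 at 33.2 FPKM, Gemin7 at 27.2 FPKM, Smn1 at 24.8 FPKM and Gemin6 at 18.3 FPKM. At the low end Gemin2 averaged 9.36 FPKM and Gemin8 4.60 FPKM. The ranges of neighbours in this order overlapped from Coil down to Gemin6. Strap nevertheless exceeded Gemin5 in 8 of 8 libraries, whereas Coil exceeded Strap in 4 and Gemin7 exceeded Smn1 in 3. The ranges of Gemin6, Gemin2 and Gemin8 did not overlap each other. In iPKO the mean of Coil lay above that of Strap and that of Smn1 above that of Gemin7, and in iPHet both orders were the reverse. The summed FPKM of the 9 genes differed little between libraries, at 252 to 259.4 FPKM in iPKO and 251.5 to 264.3 FPKM in iPHet.

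The knockout was compared with the control to ask whether the RNA of the assembly complex changes when the enzyme that marks its Sm substrates is lost. Strap fell, and the other 8 genes were not called. That is 1 of 9 genes called lower and 0 called higher, where limma called 15.8% of the 12462 genes tested, 9.53% lower and 6.3% higher, at an adjusted p under 0.05. The split of all calls by direction depends on scaling, with 785 higher and 1188 lower as given, 960 and 863 under median ratio scaling, and 936 and 946 under quantile normalization. Separate groups of libraries were found for 1 of the 9 genes, against 25.1% of all tested genes. The median log2 change of the 9 genes was -0.03 and their median absolute change 0.15, against -0.04 and 0.19 over all tested genes. The share called was near the background, so the count says nothing particular of these genes.

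Strap, also called UNRIP, is a WD-repeat protein that joins the cytoplasmic SMN complex through Gemin7 and also acts in TGF-beta signalling. It had 42.1, 44.7, 38.6 and 44.5 FPKM in iPKO 1 to 4, against 51.2, 56.4, 52.4 and 56.0 FPKM in iPHet 1 to 4. The groups did not overlap, and the gap between them was wider than the range within either. Strap averaged 42.5 ± 2.84 FPKM in iPKO and 54.0 ± 2.60 FPKM in iPHet (SD, n = 4 each), which left 78.7% of the control level. The log2 change was -0.34 (SE 0.07, 95% interval -0.49 to -0.19, limma adjusted p = 0.0132), and exact two-sided permutation returned p = 0.0286, which is the lower limit for 4 libraries against 4. Libraries 1 and 3 gave a log2 change of -0.35 and libraries 2 and 4 gave -0.33, so the size was alike in both pairs. The call held without any 1 of the 8 libraries (limma adjusted p of 0.0255 to 0.0416). It ended where each pair of libraries was averaged to 1 value (limma adjusted p = 0.586, and 0.287 with an odd/even term) and where a correlation within pairs was estimated (limma adjusted p = 0.263). The authors' bounds on single Strap values were 4.82% to 6.21% of the value to either side.

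The Strap gene (ENSMUSG00000030224) occupies 137735078 to 137751932 of chromosome 6 (mm10, plus strand), and no other annotated gene overlaps it. Its promoter is shown because Strap was the 1 gene called, and that of Coil because Coil had the largest fitted change of the 9. Each line gives the 250 bases before the RefSeq start, 5′ to 3′ on the gene's strand (GRCm38.p6), at chr6:137734832-137735081 for Strap and chr11:88973685-88973934 for Coil. Capitals mark matches, on either strand, to 1 of 7 motifs searched.
Strap: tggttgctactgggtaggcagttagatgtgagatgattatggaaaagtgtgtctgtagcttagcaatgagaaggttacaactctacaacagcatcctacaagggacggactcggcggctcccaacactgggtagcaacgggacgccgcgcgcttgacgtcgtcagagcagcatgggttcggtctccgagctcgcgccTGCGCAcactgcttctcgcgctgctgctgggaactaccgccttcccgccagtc
Coil: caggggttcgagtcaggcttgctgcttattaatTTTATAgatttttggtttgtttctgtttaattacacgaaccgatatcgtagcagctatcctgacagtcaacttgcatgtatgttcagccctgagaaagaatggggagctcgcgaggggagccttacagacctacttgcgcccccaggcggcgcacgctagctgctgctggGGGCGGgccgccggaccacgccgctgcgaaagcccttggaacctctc
The Strap window held 1 match to the core TGCGCA of the NRF1 motif, which 6.43% of 32851 promoter windows of the same length hold. The Coil window held 1 GC box (GGGCGG, in 32.7% of windows) and 1 match to the TATA letters TATAAA (in 12.4%), which lies on the opposite strand far from the start and so reads TTTATA. None of the 9 genes had a match to the E-box CACGTG (in 6.02% of windows) or to the ETS letters CCGGAAGT (in 2.88%). A CRE (TGACGTCA, in 1.55%) stood before Gemin6, and CCAAT (in 33.8%) before Gemin8 and before 1 of the RefSeq starts of Smn1. GC boxes also stood before Gemin2, Gemin4, Gemin5, Gemin7 and Gemin8. The window of Strap was 57.6% G and C with 19 CpG sites, and that of Coil 54.8% with 16. These matches are letters in a window and say nothing of binding.

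SMN and Gemin2 form the core of the complex. SMN, the protein lost in spinal muscular atrophy, binds the methylated Sm tails, and Gemin2 holds the open ring of Sm proteins. Smn1 had 24.5, 29.7, 23.1 and 28.9 FPKM in iPKO 1 to 4, against 22.3, 25.7, 20.0 and 24.4 FPKM in iPHet 1 to 4. Each iPKO library was above the iPHet library of the same number, but the groups overlapped. The means were 26.5 ± 3.26 FPKM in iPKO and 23.1 ± 2.50 FPKM in iPHet (SD, n = 4 each), and the log2 change was 0.19 (SE 0.11, 95% interval -0.06 to 0.44, limma adjusted p = 0.264). With the replicate number as a block the same change was called (limma adjusted p = 0.0254), in a fit that called 27.5% of all genes tested. That call ended with pair averages and an odd/even term (limma adjusted p = 0.429) and with an estimated correlation within pairs (limma adjusted p = 0.696). Smn1 (ENSMUSG00000021645) lies on chromosome 13 from 100124852 to 100137690 and has no overlapping gene.

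Gemin2 had 9.47, 10.2, 8.67 and 11.02 FPKM in iPKO 1 to 4, against 9.69, 8.46, 9.51 and 7.86 FPKM in iPHet 1 to 4. The difference sat in libraries 2 and 4, where iPKO averaged 10.6 FPKM and iPHet 8.16 FPKM. Libraries 1 and 3 averaged 9.07 FPKM in iPKO and 9.60 FPKM in iPHet, the opposite order. Over all libraries the log2 change was 0.13 (SE 0.09, 95% interval -0.08 to 0.35, limma adjusted p = 0.37).

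Gemin5 is the WD-repeat protein that recognises the cap and Sm site of small nuclear RNA precursors, and Gemin4 is the partner of the helicase Gemin3. Gemin5 had 31.3, 39.3, 32.3 and 38.6 FPKM in iPKO 1 to 4, against 34.6, 41.9, 33.0 and 42.6 FPKM in iPHet 1 to 4. Gemin4 had 29.3, 36.2, 29.1 and 35.9 FPKM in iPKO 1 to 4, against 28.2, 39.4, 28.1 and 39.0 FPKM in iPHet 1 to 4. In both genotypes these genes were higher in libraries 2 and 4, by 1.23-fold in iPKO and 1.25-fold in iPHet for Gemin5 and by 1.23-fold in iPKO and 1.39-fold in iPHet for Gemin4. The log2 changes between genotypes were -0.10 for Gemin5 (95% interval -0.36 to 0.16, limma adjusted p = 0.595) and -0.03 for Gemin4 (95% interval -0.36 to 0.29, limma adjusted p = 0.895), and the sign of the change of Gemin4 turned under 2 other scalings. Gemin4, on chromosome 11 from 76210571 to 76217664, overlaps Glod4, Fam57a and Dbil5, and Glod4 was expressed at 24.2 to 30.2 FPKM in iPKO and 27.8 to 29.6 FPKM in iPHet. Where these genes overlap, the values of Gemin4 are uncertain. Gemin5, at 58120002 to 58168539 of the same chromosome, overlaps the antisense gene Gm12246, which stayed under 1 FPKM.

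Gemin6 and Gemin7 fold like Sm proteins and form a dimer, which Gemin8 ties to SMN. Gemin7 had 23.1, 21.2, 24.2 and 27.3 FPKM in iPKO 1 to 4, against 40.1, 22.8, 35.1 and 23.8 FPKM in iPHet 1 to 4. The iPHet 1 and 3 libraries stood above all others, and the remaining 6 libraries lay between 21.2 and 27.3 FPKM. The means were 23.9 ± 2.55 FPKM in iPKO and 30.4 ± 8.51 FPKM in iPHet (SD, n = 4 each), and the log2 change was -0.30 (SE 0.18, 95% interval -0.72 to 0.12, limma adjusted p = 0.307). By pair it was -0.64 in libraries 1 and 3 and 0.043 in libraries 2 and 4. Gemin7 (ENSMUSG00000044709) lies on chromosome 7 from 19564946 to 19573823 in the files. In GENCODE vM21 the gene reaches on to 19577595 and there overlaps Zfp296, a zinc finger gene on the other strand. Zfp296 had 34.6, 27.7, 35.6 and 28.4 FPKM in iPKO 1 to 4, against 45.2, 40.0, 48.9 and 38.8 FPKM in iPHet 1 to 4, and was itself called lower (log2 change -0.44, limma adjusted p = 0.0313). Its part in the values of Gemin7 was not tested.

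Gemin6 had 15.8, 19.7, 14.1 and 20.1 FPKM in iPKO 1 to 4, against 20.2, 18.2, 20.2 and 18.4 FPKM in iPHet 1 to 4. Here the iPKO 1 and 3 libraries stood below the other 6, which spanned 18.2 to 20.2 FPKM. The log2 change was -0.41 in libraries 1 and 3, 0.12 in libraries 2 and 4 and -0.15 over all (SE 0.12, 95% interval -0.41 to 0.12, limma adjusted p = 0.426). Gemin6-ps, a pseudogene on chromosome 6, was listed at 0 in every library. Gemin8, the least expressed of the genes, had 5.45, 3.65, 6.31 and 4.34 FPKM in iPKO 1 to 4, against 3.89, 4.71, 4.50 and 3.97 FPKM in iPHet 1 to 4. Its iPKO 1 and 3 libraries were the highest of the 8. The log2 change was 0.15 (SE 0.14, 95% interval -0.18 to 0.49, limma adjusted p = 0.507), and the authors' bounds on single values were wide, at 15.1% to 22.6% of the value to either side. Gemin6 lies on chromosome 17 and Gemin8 on the X chromosome, and neither overlaps another gene.

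Coilin is the scaffold protein of Cajal bodies. Coil had 78.4, 49.5, 75.6 and 46.4 FPKM in iPKO 1 to 4, against 50.0, 46.8, 48.7 and 42.7 FPKM in iPHet 1 to 4. The iPKO 1 and 3 libraries stood apart from the other 6, and iPKO 2 and 4 lay within the range of iPHet. The means were 62.5 ± 16.9 FPKM in iPKO and 47.1 ± 3.20 FPKM in iPHet (SD, n = 4 each), with a log2 change of 0.36 (SE 0.18, 95% interval -0.04 to 0.77, limma adjusted p = 0.203). Coil was 1.56-fold higher in iPKO than in iPHet in libraries 1 and 3 and 1.07-fold higher in libraries 2 and 4. Within iPKO, libraries 1 and 3 were 1.61-fold above libraries 2 and 4, and within iPHet 1.10-fold. The authors' bounds on these values were 4.08% to 6.24% of the value, and those of iPKO 1 and 3 did not reach those of iPKO 2 and 4. The gene (ENSMUSG00000033983) lies on chromosome 11 from 88970252 to 88991613 and contains 2210409E12Rik, a transcribed processed pseudogene at 88972635 to 88973002, upstream of the RefSeq start used for the promoter window. That pseudogene had 258, 179, 325 and 209 FPKM in iPKO 1 to 4, against 261, 160, 307 and 182 FPKM in iPHet 1 to 4. It was higher in libraries 1 and 3 of both genotypes, its log2 change between genotypes was 0.11 (limma adjusted p = 0.812), and its part in the values of Coil was not tested.

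**Figure D2:**
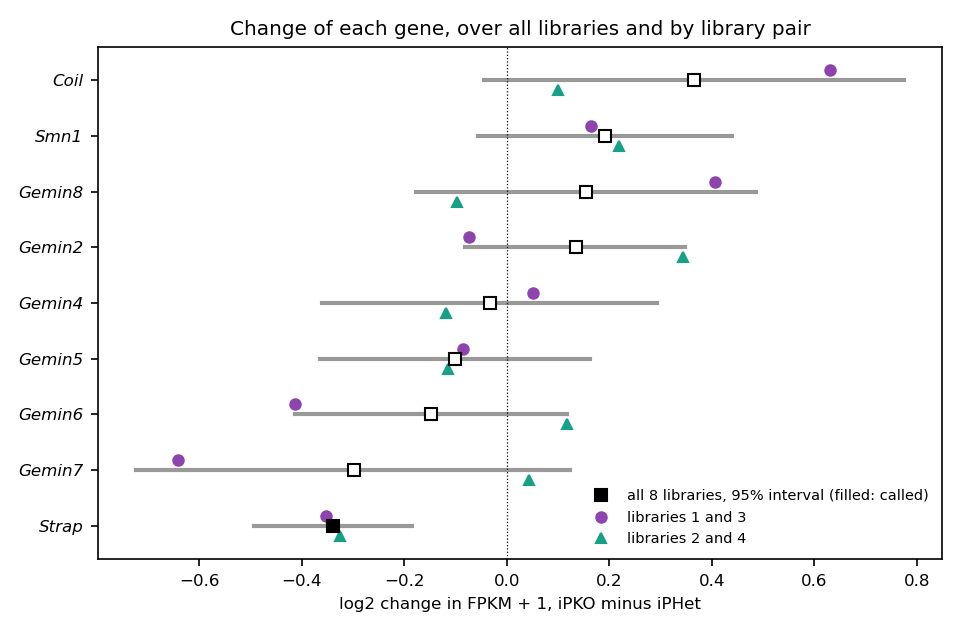
Log2 change in FPKM + 1, iPKO minus iPHet, of each gene. Squares are fits over all 8 libraries with 95% intervals (filled where called), circles are libraries 1 and 3, and triangles are libraries 2 and 4. The markers of Strap sit together near -0.34, while the circles and triangles of Gemin7 (-0.64 and 0.043), Gemin6 (-0.41 and 0.12) and Coil (0.63 and 0.10) lie far apart.

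The changes of Gemin2, Gemin4, Gemin6, Gemin7 and Gemin8 had opposite signs in the library pairs, which is 5 of the 9 genes. The share of all tested genes with opposite signs was not computed, so that count says nothing particular of the 9 genes. Fitted alone, libraries 1 and 3 called 5 of the 9 genes, with Coil and Gemin8 higher and Gemin6, Gemin7 and Strap lower, where 45.4% of all genes tested were called. Libraries 2 and 4 alone called 3, with Smn1 and Gemin2 higher and Strap lower, where 40.2% were called. The p-values of these fits rest on the spread within pairs, and the counts lie near their backgrounds. Strap was the 1 of the 9 genes called in both. The share of all genes called in both was not computed, so this does not set Strap apart from genes at large.

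Set against the other genes in the same library, Strap was lower in iPKO by the mean ratio for all 8. Its ratio to Smn1 was 1.72, 1.51, 1.67 and 1.54 in iPKO 1 to 4, against 2.30, 2.20, 2.62 and 2.29 in iPHet 1 to 4. These groups did not overlap, with means of 1.61 ± 0.10 in iPKO and 2.35 ± 0.19 in iPHet (SD, n = 4 each). The ratio of Strap to Gemin2 was 4.04 to 4.46 in iPKO and 5.29 to 7.13 in iPHet, and to Coil 0.511 to 0.959 in iPKO and 1.02 to 1.31 in iPHet, again without overlap. Against Gemin4, Gemin5, Gemin6, Gemin7 and Gemin8 the ranges of the genotypes overlapped. In libraries 1 and 3 the order was reversed for Gemin6 and Gemin7. There the ratio to Gemin6 was 2.67 and 2.74 in iPKO against 2.54 and 2.59 in iPHet. The ratio to Gemin7 was 1.82 and 1.59 in iPKO against 1.28 and 1.49 in iPHet. The ratios were examined because Strap was called, so they carry no test. A ratio shows unequal change and does not show that either gene stayed the same.

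**Figure D3:**
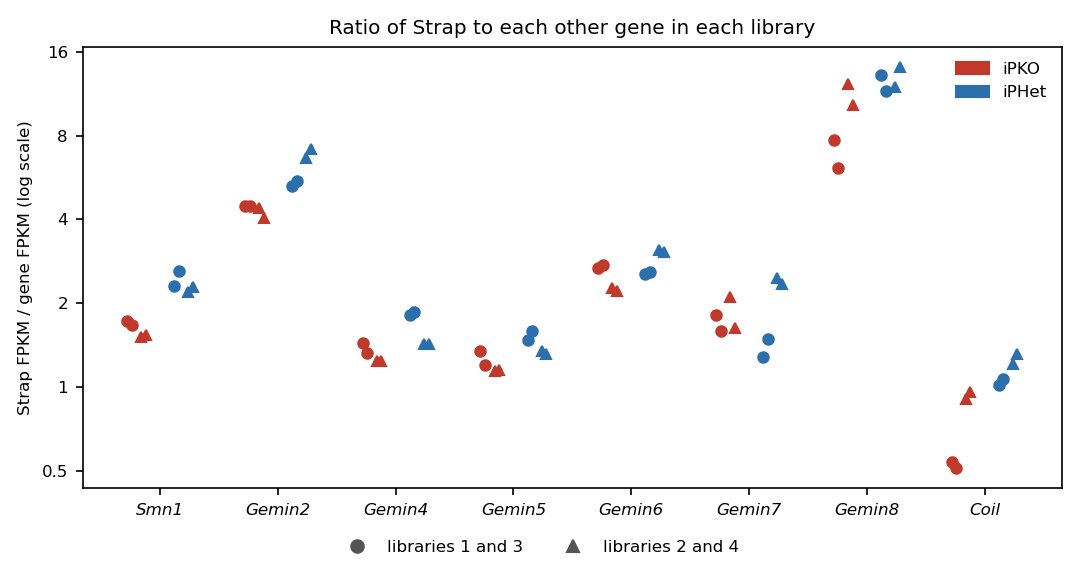
Ratio of Strap FPKM to that of each other gene (log axis) in iPKO and iPHet libraries, with circles for libraries 1 and 3 and triangles for libraries 2 and 4. The ratios to Smn1 (1.51 to 1.72 in iPKO, 2.20 to 2.62 in iPHet), Gemin2 and Coil separate the genotypes, and the other 5 do not.

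The steps before and after the SMN complex were examined in 4 lists with 35 genes, all of which passed the filter. Of these, 2 were called lower and 0 higher, against the background of 9.53% lower and 6.3% higher over all genes tested. With the correlation within pairs estimated Prmt5 alone remained called (limma adjusted p = 0.00204). The replicate block called 8 of the 35, in a fit that called 27.5% of all genes tested. The methylosome list, which includes Gemin3, held 7 genes, of which Prmt5 alone was called. Ddx20, which encodes Gemin3, averaged 33.0 ± 2.55 FPKM in iPKO and 33.1 ± 1.90 FPKM in iPHet (SD, n = 4 each), with a log2 change of -0.006 (SE 0.07, limma adjusted p = 0.967). Wdr77, the WD-repeat cofactor of PRMT5, had 135, 111, 134 and 108 FPKM in iPKO 1 to 4, against 129, 153, 132 and 149 FPKM in iPHet 1 to 4 (limma adjusted p = 0.198). It was thus lower in iPKO 2 and 4 but not in iPKO 1 and 3. Wdr77 overlaps Atp5f1 and Ovgp1.

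Of 10 genes of the Sm ring and of its U7 counterpart, 0 were called by limma at an adjusted p under 0.05. An unadjusted p under 0.05 was found for 2, and the share of all genes at that threshold was not computed. The log2 change was below 0 for 8, as it was for 7055 of the 12462 genes tested. The smallest p was that of Snrpf, an Sm ring protein, at 9.70, 14.3, 11.2 and 14.8 FPKM in iPKO 1 to 4, against 16.3, 16.9, 17.2 and 18.1 FPKM in iPHet 1 to 4. Its groups did not overlap (log2 change -0.44, SE 0.13, limma adjusted p = 0.0508). The Snrpf gene overlaps Ccdc38 and 4933408J17Rik. The replicate block called Snrpf (limma adjusted p = 0.0315) and Lsm10 of the U7 ring (log2 change -0.68, limma adjusted p = 0.0336, against 0.0551 without the block), and both calls were absent with an estimated correlation within pairs (limma adjusted p = 0.382 and 0.513). Among 8 factors of snRNA export and snRNP import, limma called 0. An unadjusted p under 0.05 was found for 2, which changed in opposite directions, again without a share over all genes. Snupn, snurportin, which carries capped snRNPs into the nucleus, had the smallest p, with 6.20 ± 0.39 FPKM in iPKO and 7.24 ± 0.28 FPKM in iPHet (SD, n = 4 each, limma adjusted p = 0.078).

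Of 10 Cajal body genes Toe1 was called lower. Toe1, an exonuclease that trims the ends of small nuclear RNA precursors, had 22.9, 26.5, 22.8 and 22.6 FPKM in iPKO 1 to 4, against 27.5, 28.2, 27.3 and 30.3 FPKM in iPHet 1 to 4. Its log2 change was -0.25 (SE 0.07, limma adjusted p = 0.0447). The call held only without iPKO 2 among the fits that left out 1 library (limma adjusted p of 0.0263 there and of 0.0731 to 0.109 in the other 7). It also ended with an estimated correlation within pairs (limma adjusted p = 0.579), with pair averages (0.65, and 0.356 with an odd/even term), under median ratio scaling (0.132) and quantile normalization (0.0992), and narrowly with no filter (0.0505) or no trend (0.0559). Toe1 overlaps Tesk2. Npat, which drives transcription of histone genes at a related nuclear body, had 13.7, 10.6, 12.6 and 10.4 FPKM in iPKO 1 to 4, against 8.97, 9.88, 9.10 and 8.81 FPKM in iPHet 1 to 4. Every iPKO library exceeded every iPHet library (log2 change 0.33, SE 0.09, limma adjusted p = 0.0518).

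**Figure D4:**
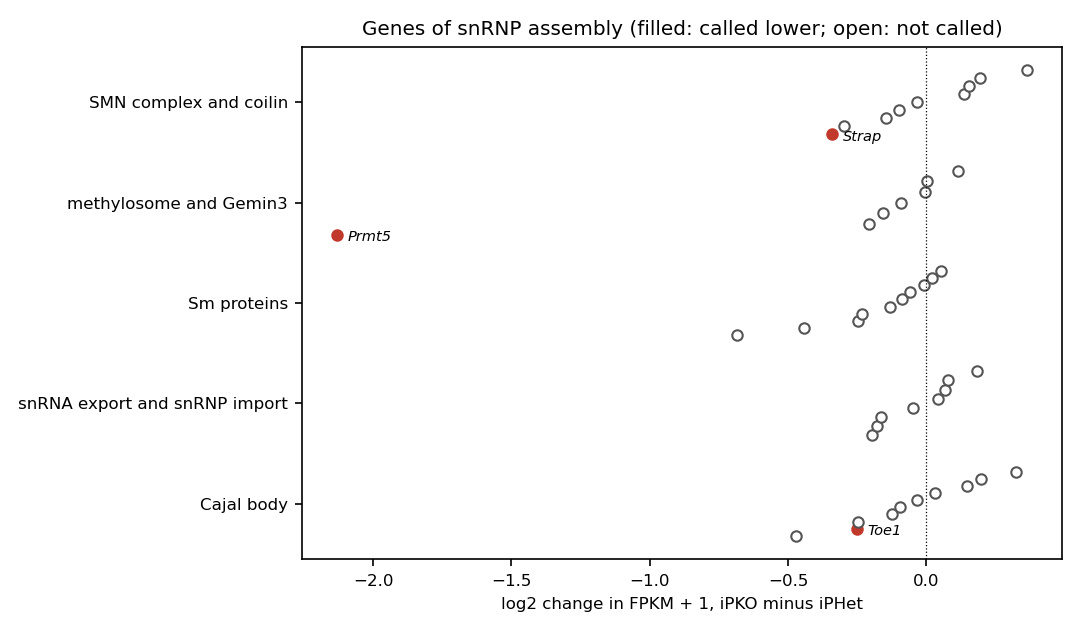
Log2 change in FPKM + 1, iPKO minus iPHet, of the 9 genes and of the 35 genes in the 4 lists of neighbouring steps, 1 circle per gene, filled where called. The called genes are Strap (-0.34), Prmt5 (-2.13) and Toe1 (-0.25), and all 3 were lower in iPKO.

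The genes most like Strap in pattern were sought among 8138 other protein-coding genes that averaged 5 FPKM or more, by the mean absolute difference of centred log2 values over the 8 libraries. Psmb2, a subunit of the proteasome, and Hdlbp, the RNA-binding protein vigilin, came first at 0.0299 each, and Slc3a2, the heavy chain of amino acid transporters, followed at 0.0304. Psmb2 averaged 81.2 ± 1.98 FPKM in iPKO and 102 ± 5.82 FPKM in iPHet (SD, n = 4 each), Hdlbp 61.4 ± 2.85 FPKM in iPKO and 76.9 ± 4.92 FPKM in iPHet, and Slc3a2 62.9 ± 6.33 FPKM in iPKO and 80.4 ± 3.53 FPKM in iPHet. Each stood at 78.2% to 79.8% of its control level. They were picked for likeness to Strap in these same 8 libraries, so a level like that of Strap follows from the choice and carries no test.

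The gene models differ widely in size. By the longest coding sequence in GENCODE vM21, Gemin7 encodes 129 residues, Gemin6 166, Gemin8 238, Gemin2 269, Smn1 288, Strap 350, Coil 573, Gemin4 1058 and Gemin5 1503. The longest and the shortest of these coding sequences, Gemin5 and Gemin7, averaged 36.7 and 27.2 FPKM over the 8 libraries. Gemin4, Gemin5 and Coil share chromosome 11 at distant positions, and the other 6 genes are on different chromosomes. Values per transcript were not analysed here, so a change in splicing at an even gene level would not be seen.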

How the data were processed

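RNA from embryonic stem cells was sequenced as paired reads of 100 bases after an Illumina TruSeq library preparation, per the labels' protocols. The authors deposited FPKM values per gene and library, each with 2 confidence bounds, per the file headers. The submitters' processing notes name Trimmomatic for trimming and mm10 as the build. Which aligner and which FPKM program were used, whether strand was counted and how libraries were scaled is not given in the sources used here. For 19 identifiers with several loci the rows were added up. Starts in the files count from 0 and are given from 1, at which all 9 match GENCODE vM21. That annotation held 96% of the identifiers and gave gene types and overlaps. RefSeq promoter windows matched 9 of 9 genes.

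Values were log2(FPKM + 1), which understates changes of low genes. Genes that averaged 1 FPKM or more in a genotype entered limma 3.58.1 (R 4.3.3, data.table version 1.17.8), fitted with an intensity trend over all 8 libraries and without covariates. Calls took a Benjamini-Hochberg adjusted p under 0.05 over 12462 genes. The fit was tested on simulated data. In those data the libraries were independent and the added changes were larger than those of the 9 genes. That test therefore does not cover libraries that are alike in pairs, or changes as small as these. The design foresaw a count test only for count files. Figures were drawn with matplotlib 3.10.9. The members and lists were chosen with earlier results of these data known. Named genes were the 9 members, Prmt5, every called gene of the 4 lists, the gene of smallest p among those not called in each list, and the 3 genes most like Strap. Neighbours that overlap a member, Ddx20, Lsm10 and single markers were added after their values were seen. Zpr1 and Ice1 carry the symbols Zfp259 and BC018507 in the files.

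To check whether numbers pair the libraries, each library's deviation from its genotype mean was correlated between iPKO and iPHet, giving 0.104, 0.162, 0.204 and 0.107 for numbers 1 to 4. All exceed 0.1, the limit taken for paired numbers, so the replicate block is given where it changes a call. The labels do not state this pairing. Unequal numbers of the same parity gave 0.077 to 0.124. Alternatives left out each library, added the block, averaged or correlated libraries 1 and 3, and 2 and 4, split them, and changed pseudocount, filter, scaling, gene set and trend.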

Additional observations from a re-analysis of the deposited data

Results flagged for a closer look

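In 88 groups of 4 libraries, those of the 9 genes and of the 35 genes of the neighbouring steps, 2 held a library far from the other 3. Chance flags 1 in 20 among unrelated libraries. Libraries 1 and 3, and 2 and 4, were alike, so that rate cannot serve as a comparison here. Neither was a gene of the SMN complex. Lsm10, a protein of the Sm-like ring of the U7 particle, had 14.5 FPKM in iPHet 1, against 10.1 to 10.4 FPKM in the other iPHet libraries. Toe1 had 26.5 FPKM in iPKO 2, against 22.6 to 22.9 FPKM in the other iPKO libraries.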

How the results depend on the processing

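Over 22 alternatives the log2 change of Strap stayed negative (-0.36 to -0.29) and was called in 18. Of these, 8 left out 1 library and kept its paired library, and the fits of libraries 1 and 3 or 2 and 4 alone called 45.4% and 40.2% of all genes. Under median ratio scaling the call was narrow (limma adjusted p = 0.049). The change of Strap was -0.34 but not called (limma) with pair averages, with these and an odd/even term, with a correlation within pairs, and with the term over protein-coding genes, an alternative chosen after the data were seen (adjusted p of 0.586, 0.287, 0.263 and 0.184). The fits on pair averages, also that over protein-coding genes, hold 1 value per pair. The fit with a correlation within pairs keeps all 8 libraries and treats those of a pair as related. The changes of Smn1, Gemin5 and Coil kept their sign throughout. Under median ratio scaling and quantile normalization Gemin4 moved to 0.012 and 0.014. Without 1 library it ran from -0.112 to 0.045 (above 0 without iPHet 2 or 4 or iPKO 1 or 3). In those fits Smn1 ran from 0.127 to 0.254, Gemin2 from 0.083 to 0.187, Gemin5 from -0.164 to -0.044, Gemin6 from -0.218 to -0.057, Gemin7 from -0.42 to -0.157, Gemin8 from 0.047 (without iPKO 3) to 0.264 (without iPKO 2) and Coil from 0.244 to 0.492, none of them called.

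With libraries 1 and 3 alone the changes were 0.63 for Coil, -0.41 for Gemin6, -0.64 for Gemin7 and 0.41 for Gemin8, all called, -0.075 for Gemin2 and 0.05 for Gemin4. With libraries 2 and 4 alone they were 0.34 for Gemin2 and 0.22 for Smn1, both called, 0.12 for Gemin6, 0.043 for Gemin7 and -0.10 for Gemin8. The replicate block called Smn1 (0.19) besides Strap and changed no other member's call. Causes were not tested.

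The counts below are of all genes, the 9 members and the 35 genes of the lists, against 1973, 1 and 2. They were 3427, 2 and 8 with the replicate block, 5700, 5 and 23 in libraries 1 and 3, and 4932, 3 and 17 in libraries 2 and 4. Pair averages gave 7, 0 and 0, the odd/even term 6, 0 and 0 (198, 0 and 1 over protein-coding genes), and the correlation within pairs 52, 0 and 1. Leaving out 1 library gave 1264 to 1416, 1 and 1 to 3, the lowest without iPHet 4, and 1309 without iPKO 1. The list count was 5 over protein-coding genes or with a minimum of 5 FPKM, and 1 with no filter or no trend. Gemin8 had no value at that minimum. In libraries 2 and 4, 5 of 9 genes kept their place in the order of levels. Without counts, depth sets an unknown limit, widest for Gemin8.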
